A study of Homo sapiens with 12 samples.

Results

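Chromatin accessibility was examined around 5 genes known from estrogen-treated breast cells, XBP1, AREG, AMIGO2, AGR2 and AGR3, in MDA-MB-453 cells, an established human breast cancer line of luminal type. ATAC-seq was used, in which a transposase inserts sequencing adapters into open chromatin. Each of 3 engineered lines carried an ectopic estrogen receptor alpha (ER) under doxycycline control, as the wild type (WT), as Y537S, whose altered ligand-binding domain is active in the absence of hormone, or as K303R, a mutant of the hinge region. Each line was cultured for 2 days with doxycycline and estradiol (Dox+E2), with 2 ug/mL doxycycline alone (Dox), with 1 nM estradiol alone (E2) or untreated, so the 12 libraries are single samples of 12 groups, without replicates. All groups carry the inducible construct, no library of cells without it was analysed here, and the labels do not say whether a line was 1 clone or a pool, or whether the cultures were independent.

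The members were every peak whose summit lay within a gene's span or 50 kb to either side, merged where peaks of different libraries overlapped by 1 bp or more. This gave 72 sites of 166523 merged regions in the genome. Of these, 27 lay around XBP1, 11 around AREG and 12 around AMIGO2, and the neighbouring AGR2 and AGR3 had 22 between them, 8 of which fell in both windows. A site was open in a library that listed a peak there. It was lost with Dox in an ER form when both libraries without Dox held a peak and neither library with Dox did, and gained in the reverse case. The genes were chosen by their losses with Dox in these same peak lists, so losses and gains are described and not tested.

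ER alpha is a nuclear receptor that binds DNA at estrogen response elements, or through partner factors, and recruits coactivators that open chromatin. XBP1 is a transcription factor of the unfolded protein response, made active by splicing of its mRNA when the endoplasmic reticulum is loaded, and it is a well-known estrogen-induced gene of luminal breast cancer. AREG encodes amphiregulin, a membrane-anchored ligand of the EGF receptor that is shed to act on neighbouring cells and, in mice, is needed for estrogen-driven growth of the mammary ducts. AMIGO2 is a cell-surface adhesion protein with leucine-rich repeats and an immunoglobulin domain. AGR2 and AGR3 are related proteins of the disulfide isomerase family, of which AGR2 helps fold mucins in the endoplasmic reticulum of secretory cells.

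The promoters are shown because they mark where each gene starts and because peaks over them differed between the genes. Each is the 250 bases before the most upstream RefSeq start (GRCh38.p14), read 5′ to 3′ on the gene's own strand, with motif matches on either strand in capitals. XBP1 lies on the minus strand, with its window at chr22:28800570-28800819. AREG lies on the plus strand, at chr4:74444886-74445135. AMIGO2, AGR2 and AGR3 lie on the minus strand, at chr12:47079960-47080209, chr7:16805000-16805249 and chr7:16881984-16882233.
XBP1: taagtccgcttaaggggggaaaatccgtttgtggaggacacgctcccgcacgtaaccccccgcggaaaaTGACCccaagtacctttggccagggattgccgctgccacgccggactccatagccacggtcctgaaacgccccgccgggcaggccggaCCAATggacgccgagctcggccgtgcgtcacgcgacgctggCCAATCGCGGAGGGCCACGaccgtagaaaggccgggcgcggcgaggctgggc
AREG: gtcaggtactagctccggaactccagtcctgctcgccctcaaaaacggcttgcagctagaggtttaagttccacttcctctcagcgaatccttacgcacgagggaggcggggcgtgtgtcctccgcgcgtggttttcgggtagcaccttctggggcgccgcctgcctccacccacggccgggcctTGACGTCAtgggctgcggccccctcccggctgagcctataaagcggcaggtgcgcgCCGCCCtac
AMIGO2: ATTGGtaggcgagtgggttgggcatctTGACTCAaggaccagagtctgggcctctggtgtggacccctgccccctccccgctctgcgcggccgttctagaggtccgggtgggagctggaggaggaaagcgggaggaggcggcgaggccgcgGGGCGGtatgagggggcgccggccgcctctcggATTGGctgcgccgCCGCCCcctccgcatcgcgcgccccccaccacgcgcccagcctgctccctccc
AGR2: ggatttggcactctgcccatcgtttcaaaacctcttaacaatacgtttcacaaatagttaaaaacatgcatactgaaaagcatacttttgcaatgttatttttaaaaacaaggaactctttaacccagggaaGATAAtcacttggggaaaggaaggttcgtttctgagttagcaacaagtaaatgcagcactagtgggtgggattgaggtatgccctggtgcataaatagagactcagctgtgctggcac
AGR3: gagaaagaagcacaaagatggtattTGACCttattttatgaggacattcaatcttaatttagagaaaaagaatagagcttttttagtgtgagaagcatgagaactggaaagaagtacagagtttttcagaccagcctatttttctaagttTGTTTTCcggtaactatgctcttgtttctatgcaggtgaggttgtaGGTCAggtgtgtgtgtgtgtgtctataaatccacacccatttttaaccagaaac

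No window held the full palindromic estrogen response element, which 0.04% of 34959 RefSeq promoter windows of the same length hold. One arm of it, GGTCA, found in 32.6% of windows, occurred at 1 place in XBP1 and at 2 places in AGR3. The XBP1 window also held CCAAT at 2 places (32% of windows), and the second of these is the start of a match to the endoplasmic reticulum stress element (0.0744% of windows). The AREG window held the cyclic AMP response element TGACGTCA (1.65%) and 1 GC box GGGCGG (42.7%). The AMIGO2 window held the AP-1 letters TGANTCA once (6.54%), with 2 GC boxes and 2 CCAAT, the AGR2 window held GATAA once (20.4%), and the AGR3 window held the forkhead letters TGTTTNC once (15.5%). The letters TGACGTGG matched none of the 5 windows and 0.615% of all. TGACGTCA and the stress element were added to the search after the sequences had been read, and a match describes letters, not a bound site.

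Peaks covered the promoter windows of XBP1, AREG and AGR2 in all 12 libraries, that of AMIGO2 in 6 libraries, and that of AGR3 in none. The AGR3 start therefore held no listed peak in any line or treatment, and the sites counted for this gene lie in the flanks or in the interval of 49.7 kb that separates it from AGR2.

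**Figure D1:**
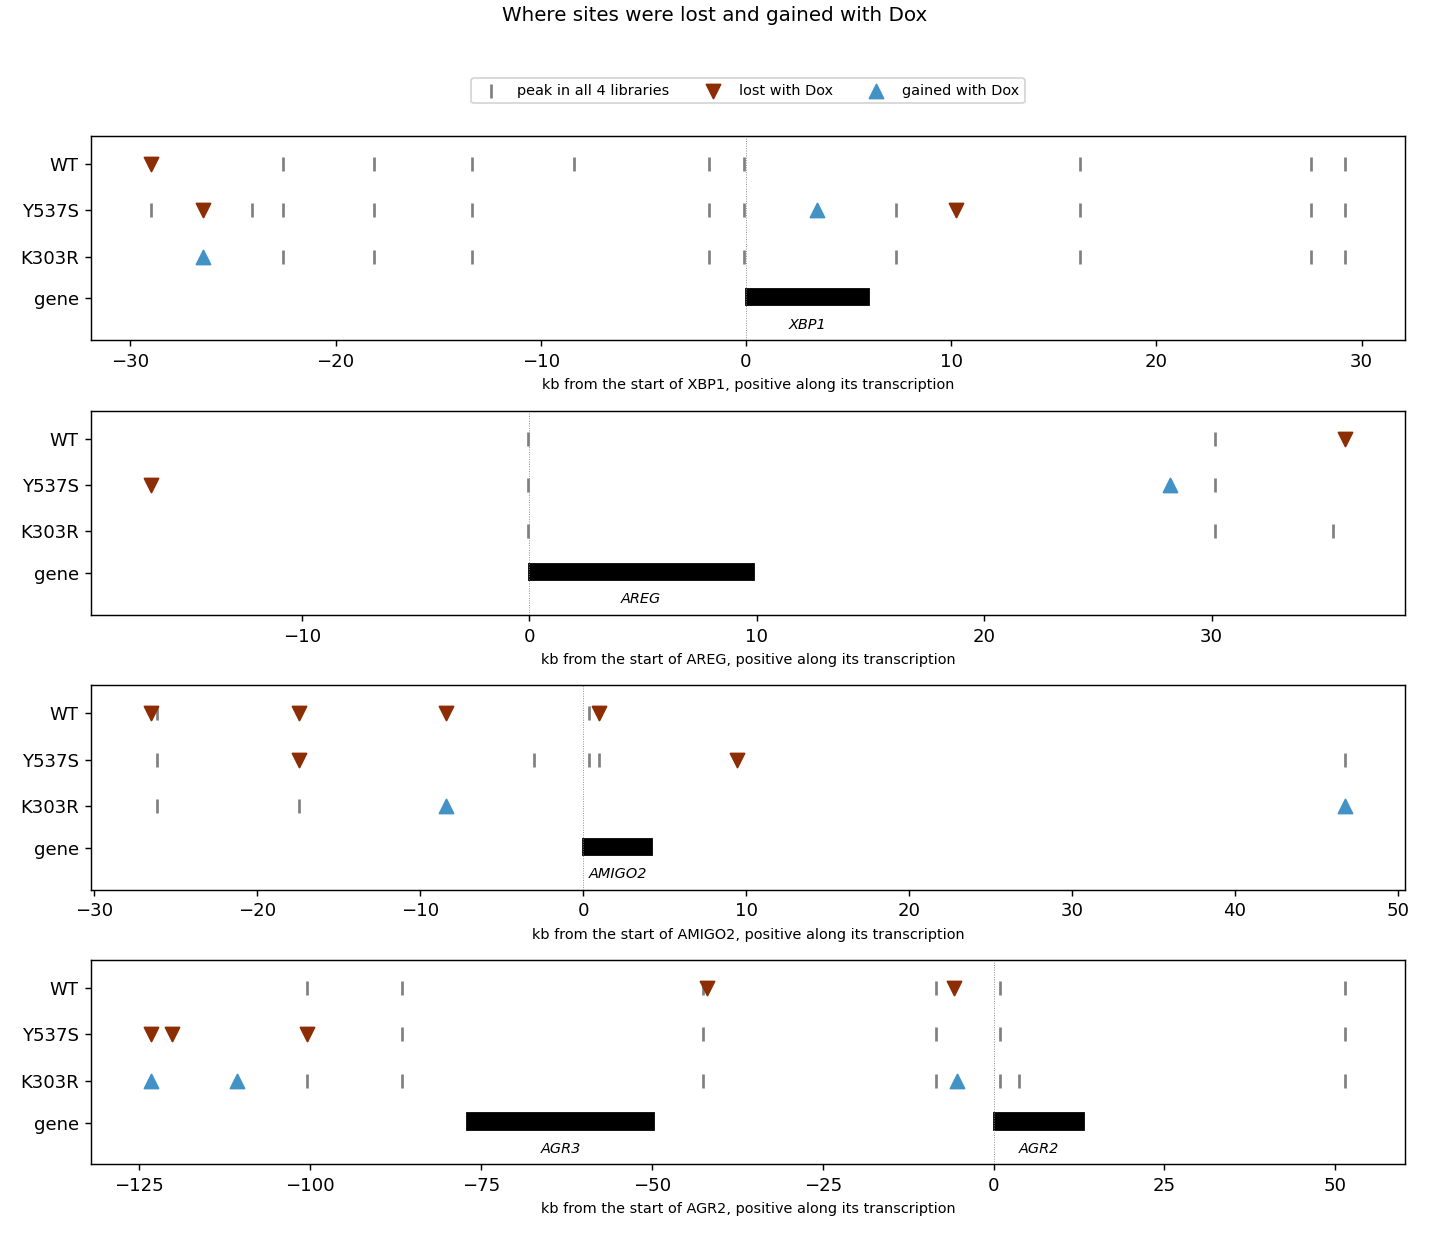
Positions of the merged sites around each gene, as distance from the gene's start in kb with downstream to the right, and the span of the gene drawn as a bar; triangles mark sites lost or gained with Dox in each ER form, and ticks mark sites with a peak in all 4 libraries of that form. The lost and gained sites lie mostly away from the starts.

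The peak lists held between 39522 (K303R untreated) and 133963 (Y537S Dox+E2) summits, and the lowest listed summit pileup was 3 to 5 fragments. A site without a peak is thus one below its library's level and not one shown to be closed. That level differed between libraries: in K303R cells it was 5 untreated and 4 with E2, against 3 with Dox and 3 with Dox+E2. The value given for each peak is the authors' deposited fold enrichment, the ratio of summit pileup plus 1 to background plus 1. Its median over the 16630 regions open in all libraries ran from 7.88 (WT untreated) and 8.32 (K303R untreated) to 26.2 (Y537S E2). Tags in the peak names, whose meaning is not given, are the same for all Y537S libraries and for all K303R libraries. In WT they differ between the libraries with Dox and those without, so Dox and the tag cannot be told apart in WT. The K303R libraries share their tag with the WT libraries without Dox, and the Y537S tag occurs in no other line. A difference between Y537S and another line thus cannot be told apart from the tag. The luminal genes KRT8, KRT18, GATA3, FOXA1, ERBB2, SPDEF and EPCAM had a site within 1 kb of a gene end in all 12 libraries, whereas none of the basal genes KRT5, KRT14, KRT17 and TP63 had one in any library. Of 4 mesenchymal genes, PDGFRB and DCN had none, COL1A2 had one in 4 libraries and COL1A1 in 11. Of the blood genes, PTPRC and CD3E had one in 4 libraries and SPI1 in 11.

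Losses were found in the WT and Y537S lines. The K303R line had none at these genes, so the label of genes that lose sites does not describe it. Losses in that line were rare over the whole genome as well, so their absence here is not particular to these genes. In WT cells 8 of the 72 sites were lost with Dox, beside 2.08% of all regions, and 0 were gained, beside 4.14% of all regions. In Y537S cells 8 were lost, beside 6.71% of all regions, and 2 were gained, beside 18.2%. In K303R cells 0 were lost, beside 0.0799%, and 6 were gained, beside 8.54%. Since the genes were picked for their losses, nothing is read from the lost shares. Among regions open in 2 or more libraries, the ones that could meet the rule, 3.06%, 9.86% and 0.117% were lost in WT, Y537S and K303R cells and 6.08%, 26.8% and 12.6% were gained.

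Every gene lost at least 1 site in WT cells: XBP1 1, AREG 1, AMIGO2 4, and AGR2 and AGR3 the same 2. In Y537S cells XBP1 lost 2, AREG 1, AMIGO2 2 and AGR3 3, while AGR2 lost 0. Only 1 site, upstream of AMIGO2, was lost in both lines, where 0.609% of all regions were lost in 2 or more forms, and 0 sites were gained in 2 or more forms, beside 4.08%. Of the 15 sites lost in WT or Y537S cells, 10 were open in a K303R library with Dox, beside 65.5% of all regions lost in either line, and 7 in both, beside 37.6%. Of the 6 sites gained in K303R cells, 5 were open without Dox in at least 1 library of the other lines, beside 63.7% of all regions gained in K303R cells, and 3 were lost in another line, beside 10.7%. The share of lost sites open in a K303R library with Dox was near that of all lost regions, and the other shares rest on few sites.

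These counts were repeated with single libraries left out. Leaving a library out takes a condition from the rule, so a count could only stay or rise. Without WT untreated or without WT Dox the WT losses came to 13, and without WT E2 or WT Dox+E2 the WT gains came to 1 and 3. Without Y537S untreated the Y537S losses came to 18, and without Y537S E2 or Y537S Dox+E2 the gains came to 5 and 7. In K303R cells 1 site was lost without K303R untreated or without K303R Dox+E2, and 13 and 15 were gained without K303R E2 and without K303R Dox+E2. With only the 39522 strongest peaks of each library the K303R gains came to 0.

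**Figure D2:**
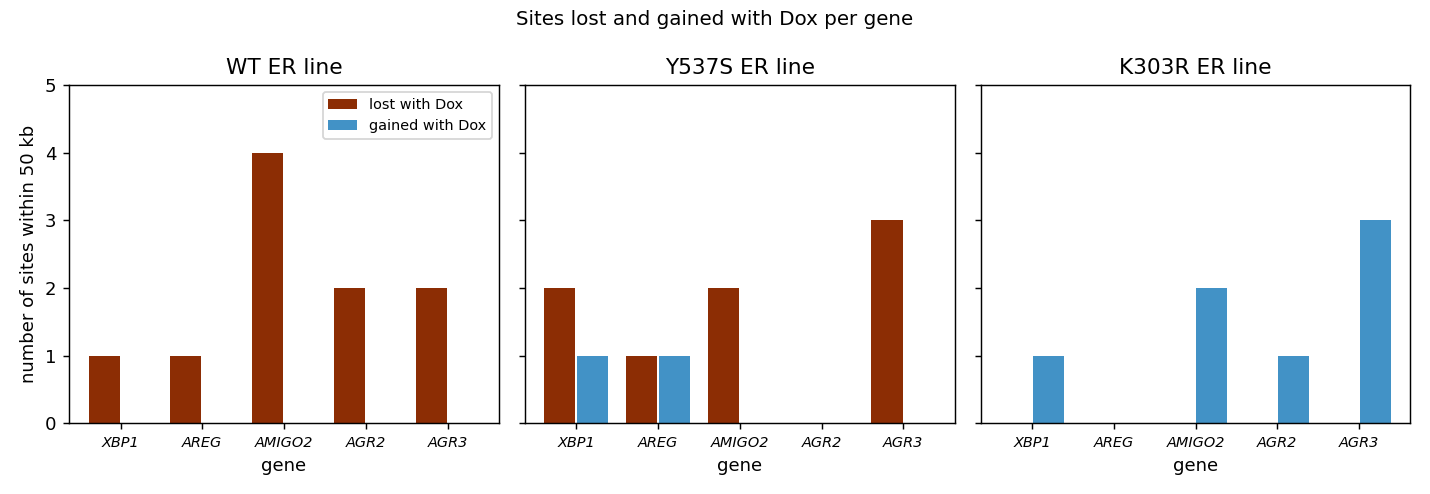
Number of sites lost and gained with Dox per gene and ER form, as bars from 0. Losses stand in the WT and Y537S lines, and the K303R line has gains only, 6 sites in all; AGR2 and AGR3 share sites.

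The lost sites were weak before Dox. In WT cells their fold enrichment without Dox was 3.86 to 10.03, from summit pileups of 4 to 12, with a median of 5.69, against 11.48 at the 19 sites open in all 4 WT libraries. In Y537S cells it was 4.49 to 15.33, from pileups of 5 to 19, with a median of 7.67, against 19.46 at the 23 sites open in all 4 Y537S libraries. The sites gained in K303R cells had lower folds still, of 3.31 to 8.39 with Dox, from pileups of 3 to 9. Their median was 4.16, against 14.05 with Dox at the 21 sites open in all 4 K303R libraries. The lowest pileup listed in K303R cells without Dox was higher than with Dox, at 5 untreated and 4 with E2. Pileups of 3 or 4 could therefore be listed with Dox and not untreated.

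At XBP1 the site lost in WT cells lay 29.0 kb upstream of the start (chromosome 22, 28829421 to 28829999). In WT cells it had no peak with Dox+E2 or Dox, against a fold of 7.72 with E2 and 5.25 untreated. All Y537S libraries held a peak there, with 8.8 with Dox+E2, 9.78 with Dox, 11.23 with E2 and 14.57 untreated. In K303R cells it had 10.91 with Dox+E2, 6.61 with Dox and 6.6 with E2, and no peak untreated. The loss at this site was thus seen in 1 line of 3.

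The site 26.5 kb upstream of XBP1 (28826547 to 28827292) went opposite ways in the mutant lines. No Y537S library with Dox held a peak there, against 9.73 with E2 and 8.43 untreated. The K303R folds were 5.03 with Dox+E2 and 3.31 with Dox, against no peak with E2 or untreated. The fold with Dox is below the lowest listed in K303R cells with E2 (4.13) or untreated (4.16). It was listed in no WT library. A second site lost in Y537S cells, 10.2 kb downstream of the start and beyond the end of the gene (28790222 to 28790553), had 5.24 with E2 and 9.2 untreated and was listed in no other library. The site gained in Y537S cells lay inside the gene, 3.48 kb from its start (28796971 to 28797186), with 5.13 with Dox+E2 and 6.02 with Dox, against no peak with E2 or untreated. It was otherwise listed once, in K303R Dox, at 4.96.

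The XBP1 promoter site (28798614 to 28801220), over the sequence printed above, was open in every library. It had 31.14 with Dox+E2, 24.25 with Dox, 20.83 with E2 and 7.88 untreated in WT cells. Its folds in Y537S cells were 50.6 with Dox+E2, 46.65 with Dox, 44.17 with E2 and 38.33 untreated. In the K303R line it had 28.53 with Dox+E2, 21.49 with Dox, 23.94 with E2 and 9.71 untreated. In WT and Y537S cells both libraries with Dox were above both without, and in K303R cells the groups overlapped. The strongest site of this gene by its median, 13.3 kb upstream (28813251 to 28814402), had 14.37 with Dox+E2, 27.19 with Dox, 33.95 with E2 and 17.5 untreated in WT cells. Folds in Y537S cells were 44.0 with Dox+E2, 34.61 with Dox, 50.16 with E2 and 40.63 untreated. The K303R folds were 26.85 with Dox+E2, 32.24 with Dox, 18.16 with E2 and 13.87 untreated. Both libraries with Dox lay above both without in K303R cells, and the groups overlapped in WT and Y537S cells, though after division of each fold by its library's median given above, the WT libraries with Dox were the lower ones.

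At AREG, the EGF receptor ligand, the site lost in WT cells lay 35.9 kb downstream of the start (chromosome 4, 74480917 to 74481324). It had no peak with Dox+E2 or Dox, against 3.86 with E2 and 4.38 untreated, and both of these folds are near the lowest the lists hold. In Y537S cells it was listed with E2 alone, at 6.74, and in K303R cells it was not listed. The site lost in Y537S cells, 16.6 kb upstream (74428229 to 74428608), had no peak with Dox+E2 or Dox, against 5.99 with E2 and 7.67 untreated. Elsewhere it was listed in K303R Dox+E2, at 5.87. The site gained in Y537S cells, 28.2 kb downstream (74473192 to 74473461), had 8.8 with Dox+E2 and 9.78 with Dox, against no peak with E2 or untreated. It was also listed in WT Dox, at 4.41.

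The AREG promoter site (74444689 to 74445917), the strongest of this gene by its median, had 12.77 with Dox+E2, 9.55 with Dox, 16.98 with E2 and 6.13 untreated in WT cells. Its folds in Y537S cells were 18.33 with Dox+E2, 16.55 with Dox, 25.45 with E2 and 28.36 untreated. In the K303R line it had 15.1 with Dox+E2, 13.23 with Dox, 14.86 with E2 and 9.71 untreated. Both libraries with Dox lay below both without in Y537S cells and the groups overlapped in the other lines, but after the same division the Y537S groups overlapped and the K303R libraries with Dox were the lower ones. A site 35.3 kb downstream, named after its values were seen, missed the rule for a loss through the peak with Dox alone. It had no peak with Dox+E2 and 9.55 with Dox in WT cells, against 20.83 with E2 and 8.75 untreated. In Y537S cells it had no peak with Dox+E2 and 6.02 with Dox, against 17.97 with E2 and 16.87 untreated. In the K303R line it ran the other way, with 12.58 with Dox+E2 and 14.88 with Dox, against 9.08 with E2 and 4.85 untreated.

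AMIGO2, the adhesion protein, had the site lost in 2 lines, 17.4 kb upstream of its start (chromosome 12, 47097117 to 47098196) and inside the divergent neighbour PCED1B. In WT cells it had no peak with Dox+E2 or Dox, against 10.03 with E2 and 7.88 untreated. No Y537S library with Dox held a peak there, against 12.73 with E2 and 8.43 untreated. In K303R cells it was open throughout, with 13.42 with Dox+E2, 6.61 with Dox, 9.08 with E2 and 6.24 untreated. The K303R libraries with and without Dox overlapped.

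The site 8.38 kb upstream of AMIGO2 (47088018 to 47088497), also inside PCED1B, was lost in WT cells and gained in K303R cells. In WT cells it had no peak with Dox+E2 or Dox, against 9.26 with E2 and 5.25 untreated. The K303R folds were 8.39 with Dox+E2 and 4.13 with Dox, against no peak with E2 or untreated, and no Y537S library listed it. A site inside AMIGO2, 0.988 kb from the start (47078678 to 47079214), had no peak with Dox+E2 or Dox in WT cells, against 4.63 with E2 and 6.13 untreated. In Y537S cells it had 5.87 with Dox+E2, 6.02 with Dox, 10.48 with E2 and 7.67 untreated, so it was lower with Dox before any scaling, but open.

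The other WT loss at AMIGO2 lay 26.5 kb upstream (47106329 to 47106678), with 6.94 with E2 and 4.38 untreated and no peak with either Dox treatment. In Y537S cells a site 9.45 kb downstream (47070219 to 47070978) had no peak with Dox+E2 or Dox, against 6.74 with E2 and 6.13 untreated. In WT cells that site was listed with Dox alone, at 6.61. In K303R cells it had 5.87 with Dox+E2, 5.79 with Dox and 5.78 with E2, and no peak untreated, so neither of these lines showed the loss. The remaining K303R gain, 46.8 kb downstream (47032711 to 47033479), had 3.36 with Dox+E2 and 4.13 with Dox, against no peak with E2 or untreated. In Y537S cells the same site was open in all 4 libraries, with folds of 6.6 to 11.98.

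The AMIGO2 start site (47079420 to 47081080), which overlaps the start of PCED1B, was the strongest of the gene by its median. It had 8.78 with Dox+E2, 8.82 with Dox, 6.94 with E2 and 5.25 untreated in WT cells. It had 11.73 with Dox+E2, 8.28 with Dox, 17.22 with E2 and 13.8 untreated in Y537S cells. In K303R cells it had 6.71 with Dox+E2, 5.79 with Dox and 4.13 with E2, and no peak untreated. Without scaling for depth, both libraries with Dox were above both without in WT and below both in Y537S. After division of each fold by its library's median over regions open in all libraries, the groups stood apart in neither line. This merged site is wider than the promoter window printed above. Over that window Y537S cells had no peak with Dox+E2 and 4.51 with Dox, against 17.22 with E2 and 13.8 untreated. WT cells had a peak over it with Dox alone, at 6.61, and K303R cells with Dox and with E2, each at 4.13.

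At the AGR2 and AGR3 pair, 2 sites were lost in WT cells. The first, 5.78 kb upstream of AGR2 (chromosome 7, 16810685 to 16810917), had 6.94 with E2 and 5.25 untreated in WT cells and was listed in no other library. The second lies between the genes, 35.0 kb downstream of the AGR3 start (16846733 to 16847149). In WT cells it had no peak with Dox+E2 or Dox, against 9.26 with E2 and 4.38 untreated. It was also listed in Y537S untreated at 6.13, and in K303R Dox+E2 at 3.36, E2 at 5.78 and untreated at 4.16.

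AGR3 had 3 losses in Y537S cells, all upstream. The site 23.5 kb upstream (16905261 to 16905890) had no peak with Dox+E2 or Dox, against 8.98 with E2 and 15.33 untreated. In WT cells it was open throughout, with 7.18 with Dox+E2, 4.41 with Dox, 12.35 with E2 and 8.75 untreated. The site 43.2 kb upstream (16925077 to 16925338) had 4.49 with E2 and 6.9 untreated in Y537S cells and was listed in no other library. The site 46.3 kb upstream (16928064 to 16928374) had no peak with Dox+E2 or Dox in Y537S cells, against 4.49 with E2 and 7.67 untreated. In K303R it showed 7.55 with Dox+E2 and 8.27 with Dox, against no peak with E2 or untreated, which is the opposite direction.

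Besides the site 46.3 kb upstream of AGR3, K303R cells gained 2 weaker sites at this pair. A site 5.29 kb upstream of AGR2 (16810182 to 16810389) had 3.36 with Dox+E2 and 6.61 with Dox, against no peak with E2 or untreated. A site 33.7 kb upstream of AGR3 (16915498 to 16915791) had 4.19 with Dox+E2 and 4.13 with Dox, against no peak with E2 or untreated. Near the end of AGR2, a site (16792311 to 16792460) was listed once, in K303R Dox at 3.31, the lowest fold of that list.

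The AGR2 start site (16803482 to 16805548) had 9.58 with Dox+E2, 8.82 with Dox, 16.2 with E2 and 5.25 untreated in WT cells. Folds in Y537S cells were 8.8 with Dox+E2, 8.28 with Dox, 19.46 with E2 and 15.33 untreated. The K303R folds were 15.1 with Dox+E2, 11.57 with Dox, 10.73 with E2 and 9.71 untreated. Both libraries with Dox were below both without in Y537S cells and above both in K303R cells; scaled, the Y537S groups stayed apart and the K303R groups overlapped. The strongest site in the AGR2 window by its median, 51.4 kb downstream (16753356 to 16754580), lies at the start of the neighbouring TSPAN13. It was open in all libraries, with folds of 8.32 to 28.36. The strongest in the AGR3 window lies between the genes (16847214 to 16848109). It had 7.18 with Dox+E2, 12.49 with Dox, 27.01 with E2 and 11.38 untreated in WT cells. The Y537S folds were 8.8 with Dox+E2, 8.28 with Dox, 31.44 with E2 and 32.2 untreated. The K303R folds were 16.78 with Dox+E2, 21.49 with Dox, 28.07 with E2 and 14.56 untreated. The groups did not overlap in Y537S cells, and did in the other lines.

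**Figure D3:**
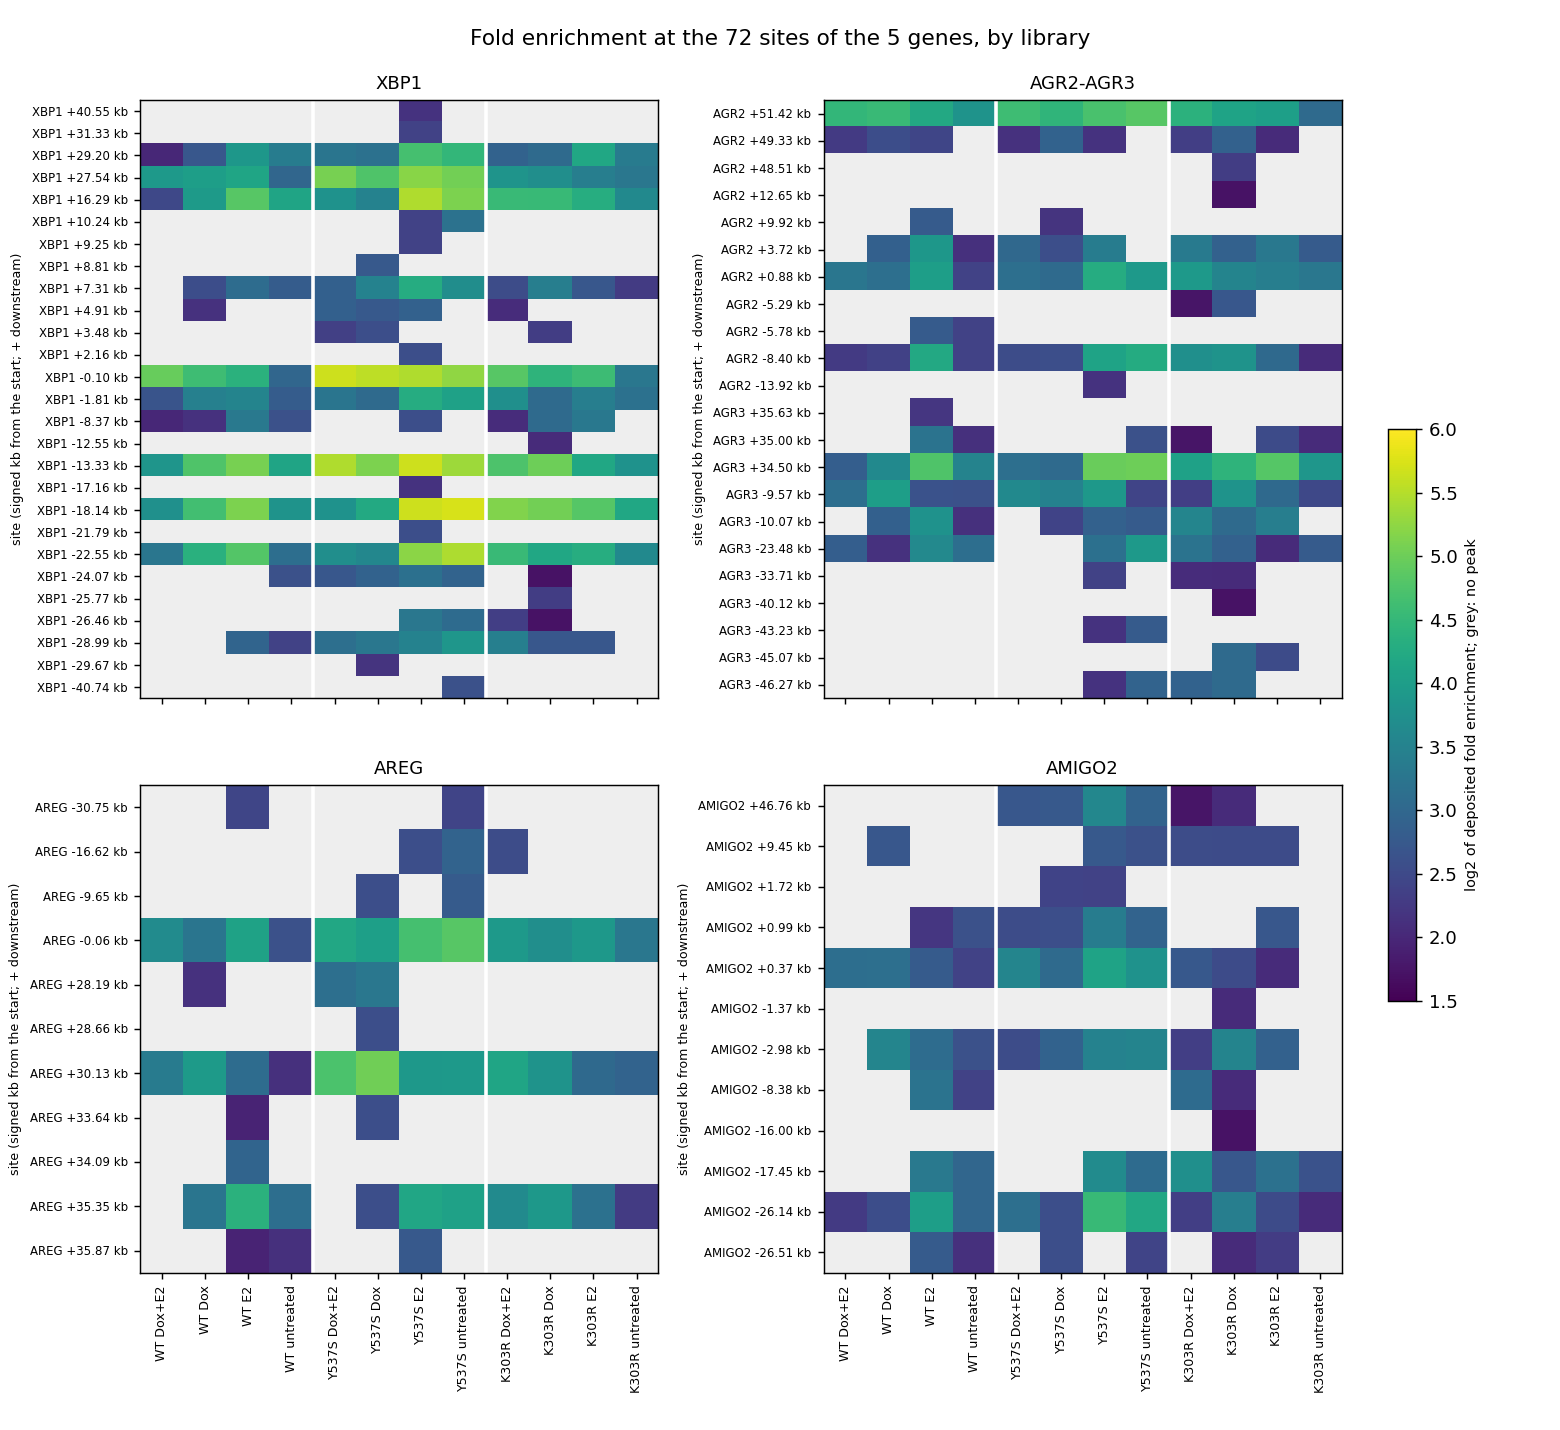
Deposited fold enrichment (colour, log2 scale) of each of the 72 sites (rows, by position, with 1 block per locus) in each of the 12 libraries (columns), with grey cells where no peak was listed. A loss is grey in both libraries with Dox of a line and coloured in both of its libraries without. Most grey cells are not losses, and 16 rows are filled in every library.

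The 16 sites open in all libraries allow a reading that does not turn on whether a weak peak was listed. Each fold was divided by its library's median over the 16630 regions open in all libraries. In WT cells both libraries with Dox lay below both without at 6 of the 16 sites, beside 20.6% of all such regions, and above at 5, beside 27%. In Y537S cells they lay below at 9, beside 26.5%, and above at 5, beside 33.8%. In K303R cells they lay below at 3, beside 19%, and above at 5, beside 19.7%. The median ratio of Dox to no Dox was 0.831 in WT, 0.671 in Y537S and 1.02 in K303R, beside 1.04, 1.05 and 1.00 over all such regions. These sites share the contrast that chose the genes, so the counts are a description.

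How many sites stood apart depended on how far apart was asked, and this rule was chosen late. A count requiring every library with Dox to differ at least 2-fold from every library without was computed first. It found 1 lower site in WT cells, 2 in Y537S cells and 1 in K303R cells, beside 0.962%, 3.9% and 0.0902% of all such regions. It found 0 higher sites in WT, 1 in Y537S and 0 in K303R cells, beside 0.367%, 1.95% and 0.0541%. The count without a minimum difference replaced it after those few calls had been seen. At 1.5-fold the lower sites were 5 in WT, 7 in Y537S and 1 in K303R cells, beside 4.48%, 9.74% and 1.59%, and the higher sites 1, 1 and 0, beside 3.07%, 5.71% and 0.974%. In K303R cells the lower sites without a minimum came to 6, 5 and 5 without K303R E2, Dox or Dox+E2, and the higher sites to 8 without K303R Dox. Leaving a library out loosens this rule too.

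Of these sites, 2 lay below in all 3 lines, beside 4.64% of all such regions, and 1 above, beside 4.8%. Those named next were chosen after their values had been seen. A site 29.2 kb downstream of the XBP1 start (chromosome 22, 28770888 to 28771763) had 3.99 with Dox+E2, 6.61 with Dox, 14.66 with E2 and 10.5 untreated in WT cells. Its folds in Y537S cells were 9.53 with Dox+E2, 9.03 with Dox, 25.45 with E2 and 22.23 untreated. In the K303R line it had 7.55 with Dox+E2, 8.27 with Dox, 18.16 with E2 and 10.4 untreated. The scaled ratio of Dox to no Dox was 0.375 in WT, 0.532 in Y537S and 0.414 in K303R, and the groups did not overlap before scaling either. The other was the site between AGR2 and AGR3 given above, with ratios of 0.49 in WT, 0.366 in Y537S and 0.676 in K303R. Before scaling, its WT and K303R groups overlapped.

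The site above in all lines lay 30.1 kb downstream of the AREG start (chromosome 4, 74474709 to 74475609). It had 10.38 with Dox+E2, 15.43 with Dox, 8.49 with E2 and 4.38 untreated in WT cells. Folds in Y537S cells were 26.4 with Dox+E2, 32.35 with Dox, 14.97 with E2 and 15.33 untreated. The K303R folds were 17.62 with Dox+E2, 14.05 with Dox, 8.25 with E2 and 7.63 untreated. The scaled ratios were 1.88 in WT, 2.63 in Y537S and 1.43 in K303R. The groups did not overlap before scaling either, so this AREG site was higher with Dox in every line, on the same side of the gene as the site lost in WT cells.

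At 2 sites upstream of XBP1, chosen after their values were seen, Y537S and K303R cells differed, as did the tags of these lines. The site 18.1 kb upstream (28818049 to 28820118) had 13.93 with Dox+E2, 18.81 with Dox, 50.16 with E2 and 52.9 untreated in Y537S cells, a scaled ratio of 0.429. In K303R cells it had 35.24 with Dox+E2, 33.07 with Dox, 28.07 with E2 and 18.03 untreated, a scaled ratio of 1.09. The site 22.6 kb upstream (28822670 to 28824085) had 13.2 with Dox+E2, 12.04 with Dox, 37.43 with E2 and 43.7 untreated in Y537S cells, a ratio of 0.426, against 0.946 in K303R cells. In WT cells the ratios of these sites were 0.757 and 0.816. The other sites upstream of XBP1 open in all libraries did not show this split. At 1.81 kb upstream the ratios were 0.845 in WT, 0.669 in Y537S and 0.771 in K303R. At 13.3 kb upstream they were 0.735 in WT, 1.18 in Y537S and 1.33 in K303R. Sites elsewhere did show it. Ratios in Y537S and K303R cells were 0.439 and 1.07 at the site 16.3 kb downstream of the XBP1 start. They were 0.481 and 1.08 at 26.1 kb upstream of AMIGO2, and 0.447 and 1.69 at 8.4 kb upstream of AGR2. The XBP1 promoter had ratios of 1.95 in WT, 1.61 in Y537S and 1.17 in K303R cells, so in Y537S cells the promoter site was higher with Dox while the sites 18.1 and 22.6 kb upstream were lower.

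**Figure D4:**
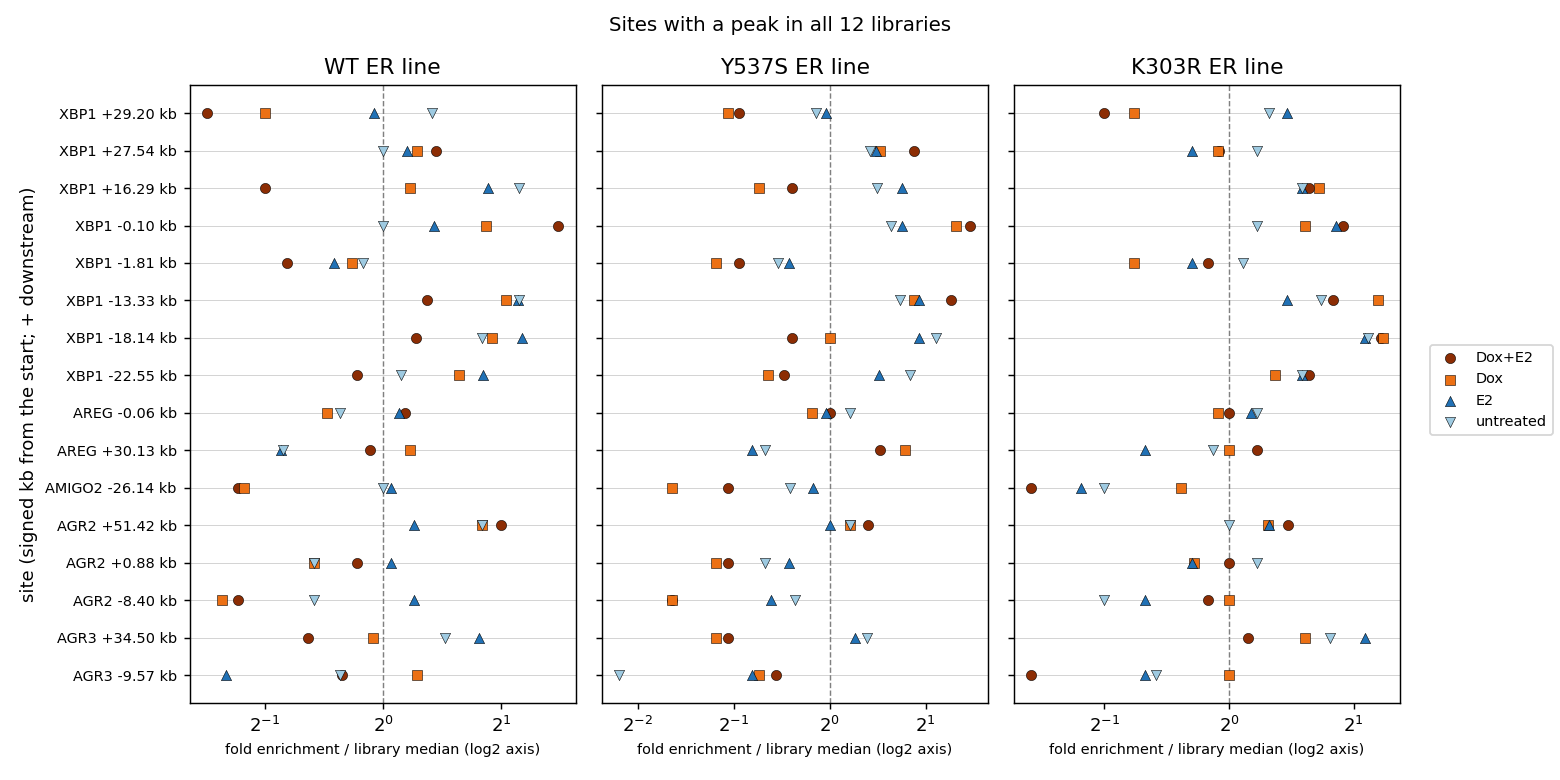
Deposited fold enrichment divided by the library's median over regions open in all libraries (log2 axis), for the 16 sites open in every library, with 1 panel per ER form and 1 symbol per library. In the Y537S panel 9 sites have both Dox symbols to the left of both others, against 6 in WT and 3 in K303R.

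The genes were chosen by the contrast of Dox, but the E2 and Dox+E2 lists entered the rule for a loss, so the open-site counts with and without E2 are not independent of that choice. A site lost or gained in a form is, by the rule, open in both or in neither library of each E2 pair of that form. Such a site adds nothing to the E2 difference in that form, so the choice of genes leans toward no difference. The number of open sites per gene was compared between the libraries with E2 and their partners of the same ER form and Dox state, by an exact two-sided permutation test over the 6 pairs, whose smallest p is 0.0312. XBP1 averaged 13.0 open sites with E2 and 12.83 without (exact p = 1), and AREG 4.0 with E2 and 4.5 without (exact p = 0.75). AMIGO2 averaged 6.0 with E2 and 6.333 without (exact p = 1). AGR2 averaged 7.167 with E2 and 6.667 without (exact p = 0.656), and AGR3 7.667 with E2 and 7.5 without (exact p = 1). No member passed, which for this reason is not read as a lack of an effect of E2. Over all 19405 protein-coding genes 1.08% had an unadjusted exact p under 0.05 (210 genes) and 0 passed after Benjamini-Hochberg adjustment. With these pairs no single gene could have passed the adjustment unless many did.

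The means hide a difference between the Dox states, described here, with no test, because it was seen in the data and rests on the same peak calls that chose the genes. With Dox, adding E2 came with fewer open sites at 14 of the 15 combinations of gene and line, beside 38.5% of such combinations over all genes. Without Dox, E2 came with more open sites at 10 of 15, beside 60.2%. XBP1 had 9 open sites with Dox+E2 and 11 with Dox in WT cells, 13 and 15 in Y537S cells, and 13 and 16 in K303R cells. AMIGO2 had 2 with Dox+E2 and 4 with Dox in WT cells, 5 and 7 in Y537S cells, and 7 and 10 in K303R cells. The exception was AREG in K303R cells, with 4 open sites with Dox+E2 and 3 with Dox. AGR2 and AGR3 share sites and are not separate cases.

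Site by site, 0 sites were open with Dox+E2 but not Dox in WT cells and 8 the reverse, beside 5.73% and 12.7% of all regions. In Y537S cells these were 0 and 10, beside 10.9% and 10.4%, and in K303R cells 3 and 11, beside 13.4% and 10.5%. Of the sites open with Dox, 28.6% had no peak with Dox+E2 in WT cells, beside 38.9% of all regions open with Dox. The same shares were 26.3% beside 18.9% in Y537S cells and 24.4% beside 25.6% in K303R cells. In K303R cells the shares were thus near each other. Without Dox, 6 sites were open with E2 and not untreated in WT cells and 1 the reverse, beside 13% and 2.88% of all regions. These were 14 and 5 in Y537S cells, beside 10.1% and 5.29%, and 10 and 0 in K303R cells, beside 10.7% and 2.55%.

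At the 16 sites open in all libraries, Dox+E2 was below Dox after scaling at 10 in WT cells, beside 43.7% of such regions, with a median ratio of 0.755 beside 1.06. It was below at 2 in Y537S cells, beside 50.8%, with a median ratio of 1.12 beside 1.0. In K303R cells it was below at 8, beside 51.3%, with a median ratio of 0.996 beside 0.989. Without Dox, E2 was below untreated at 7 sites in WT, 7 in Y537S and 9 in K303R cells, beside 55.1%, 45% and 56.8%. In WT cells the site 16.3 kb downstream of the XBP1 start, inside CCDC117, had a fold of 5.59 with Dox+E2 and 15.43 with Dox. In Y537S cells it had 13.93 with Dox+E2 and 11.29 with Dox.

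**Figure D5:**
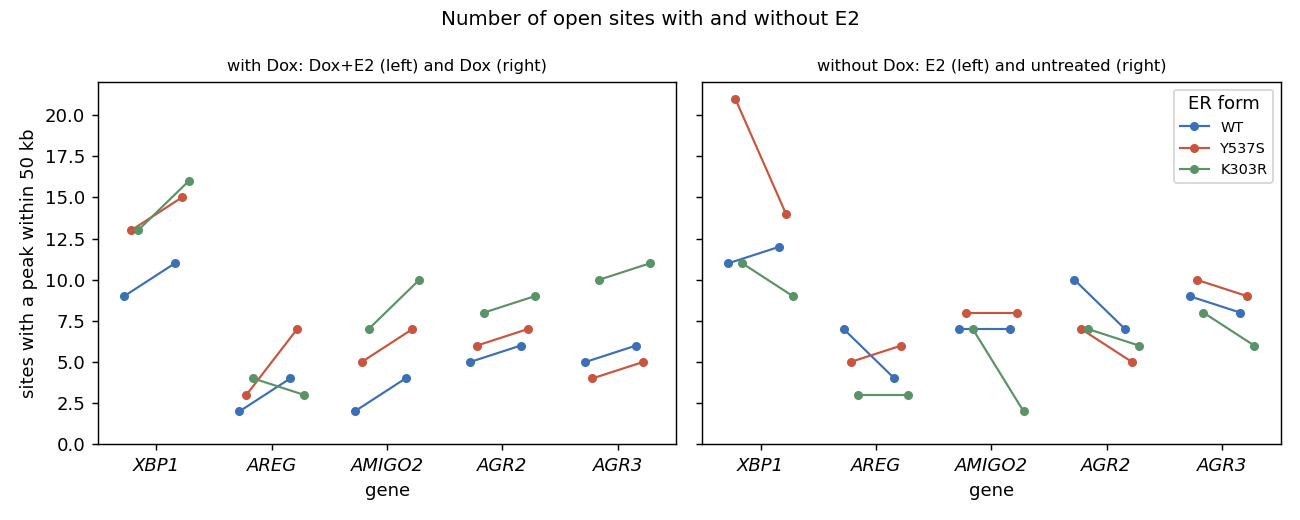
Number of open sites per gene with E2 and without E2 in each of the 6 pairs of the same ER form and Dox state, joined by lines. With Dox, the E2 library is the lower one in 14 of the 15 gene and line combinations.

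Other genes of the same pathways, taken from lists, are described for comparison. A list here is read by counts of genes with a site lost or gained, beside the share of all 19405 protein-coding genes. Of 30 other estrogen-response genes, 2 had a site lost in WT cells (21.4% of all genes), 15 in Y537S cells (47.5%) and 0 in K303R cells (1.58%). A site was gained at 21 of them in WT, 28 in Y537S and 28 in K303R cells, beside 35%, 70.4% and 59.9% of all genes. None of the 30 had more sites lost than gained in any line, beside 13.6%, 16.3% and 0.381% of all genes. This list leaves out the 5 members, which were taken for their losses, and was made with earlier results of these data known. Its counts are therefore partly set by that choice, and nothing is read from them. By their selection, all 5 members had more lost than gained in WT cells and 3 in Y537S cells. SVIL, a membrane-associated actin-binding protein, had 3 sites lost in Y537S cells and 4 gained there. ADCY9, an adenylyl cyclase, EGR3, a zinc finger transcription factor, and GREB1, an ER cofactor, each had 2 lost in Y537S cells, with 4, 4 and 10 gained there.

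Of 17 genes of the unfolded protein response, the pathway of XBP1, 5 had a site lost in WT cells, 9 in Y537S cells and 0 in K303R cells, and 9, 14 and 14 had a site gained. Of all genes, 21.4%, 47.5% and 1.58% had a site lost in these lines, and 35%, 70.4% and 59.9% had one gained. No trait of the pathway is read from these counts. PDIA6, a disulfide isomerase, had 1 site lost in WT and 3 in Y537S cells, with 2 gained in WT, 9 in Y537S and 1 in K303R cells. DNAJB9, a co-chaperone of the endoplasmic reticulum, had 1 lost in WT and 2 in Y537S cells, with 1 gained in Y537S and 1 in K303R cells. EDEM1, which helps send misfolded glycoproteins to degradation, had 2 lost in WT and 1 in Y537S cells, and 0 gained in any line. SEC24D, a vesicle coat subunit, had 1 lost in WT and 2 in Y537S cells, with 6 gained in Y537S and 2 in K303R cells.

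Of 12 genes of the EGF family and its receptors, the pathway of AREG, 4 had a site lost in WT cells, 6 in Y537S cells and 2 in K303R cells, and 4, 8 and 7 had a site gained. Beside these stand 21.4%, 47.5% and 1.58% of all genes with a loss, and 35%, 70.4% and 59.9% with a gain. ERBB4, a receptor of the neuregulins, had 4 lost in WT and 4 in Y537S cells, with 1 gained in Y537S and 10 in K303R cells. Its window held 44 sites, against a median of 16 for the list. TGFA, another ligand of the EGF receptor, had 2 lost and 1 gained in WT cells and 2 lost and 2 gained in Y537S cells. ERBB2 and ERBB3, which signal as a pair, each had 1 site lost in K303R cells, where losses were rare over the genome. In all lines ERBB2, with 60 sites, had 2 lost and 6 gained, and ERBB3, with 17 sites, 2 lost and 1 gained. Of 8 other disulfide isomerase genes, related to AGR2 and AGR3, 2, 1 and 0 had a site lost in WT, Y537S and K303R cells and 5, 7 and 4 a site gained, beside the same shares of all genes. P4HB, the founding member, had 1 lost and 10 gained over the lines. Of the other two AMIGO genes, AMIGO3 had 1 site lost and 3 gained in Y537S cells.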

How the data were processed

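The series holds 12 ATAC-seq libraries, sequenced as 75 bp paired ends per the labels' protocols. Per the submitters' processing notes, the tools were MACS2, Picard, SAMtools, Bowtie2 and FastQC, on hg38; their versions and settings were not given in the sources used here. The authors deposited 1 peak list per library: column 7 is the fold enrichment ratio, columns 8 and 9 the −log10 p and −log10 q, and column 5 a score that is 10 times the −log10 q without decimals. Per the values in the deposited lists, every fold is a whole multiple of 1 step per library, which gave summit pileups and a background of 0.143 to 0.442. Read totals are not used here.

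Peaks on chromosomes 1 to 22 and X were merged at 1 bp of overlap or more. Gene spans came from RefSeq (GRCh38.p14), without exons, and all 5 members matched the promoter table. Deposited folds were set side by side between libraries as values, as deposited or divided by library medians, and not tested. E2 was tested on open-site counts by exact permutation within 6 pairs (64 arrangements), with Benjamini-Hochberg adjustment over 19405 genes. The p-values reflect the spread among these single libraries, which may be technical. The counting and the test were tested on simulated data. Tools were Python 3.11.15, NumPy 2.4.6, pandas 2.3.3 and SciPy 1.17.1.

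Results for 2 marker genes and 1 motif are not reported here. The members and lists were chosen with earlier results of these data known. Sites named per gene are up to 4 lost and 3 gained, those within 1 kb of a gene end, the one with the highest median fold, and those lost or gained in 2 or more forms; listed genes are up to 4 per list with most losses, ties by alphabet. Other sites named in the text, open in all libraries or 35.3 kb downstream of AREG, were chosen after their values were seen. The analysis of sites open in all libraries, E2 by site and 2 motifs were added after seeing the data. For the sites open in all libraries a 2-fold rule was computed first and replaced by the non-overlap rule after its counts were seen; both are reported. Alternatives were −log10 q of at least 5 or 10, equal list length (39522 peaks), windows of 20 and 100 kb, summits within 200 bp joined, and libraries or ER forms left out.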

Additional observations from a re-analysis of the deposited data

Results flagged for a closer look

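By the rule for lost and gained sites, 3 sites were lost with Dox in one line and gained in another. In each case the difference between lines was not tested. The tags in the peak names also differ between the Y537S and K303R lines, and within WT between libraries with and without Dox. The site 26.5 kb upstream of XBP1 was lost in Y537S cells and gained in K303R cells. The site 8.38 kb upstream of AMIGO2 was lost in WT cells and gained in K303R cells. The site 46.3 kb upstream of AGR3 was lost in Y537S cells and gained in K303R cells. Of all regions gained in K303R cells, 10.7% were lost in WT or Y537S cells. All 3 gains rest on K303R libraries whose lists are longer with Dox (102713 summits with Dox+E2 and 97243 with Dox, against 61723 with E2 and 39522 untreated). Those lists also reach lower, to a pileup of 3 with Dox+E2 and with Dox, against 4 with E2 and 5 untreated. With lists of equal length the K303R gains came to 0. Sites open in all libraries are not among the 3, and some of them also ran opposite ways after scaling. At 8.4 kb upstream of AGR2 both libraries with Dox were below both without in WT and Y537S cells and above both in K303R cells. The scaled ratios of Dox to no Dox there were 0.456 in WT, 0.447 in Y537S and 1.69 in K303R.

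At AGR2, E2 came with a mean of 2.0 more open sites without Dox and with a difference of -1.0 with Dox, the same direction in each of the 3 lines within a Dox state. At AGR3 the differences were 1.33 without Dox and -1.0 with Dox, likewise in each line. Over all genes the median difference was 1.0 without Dox and 0.0 with Dox. The other members also had a positive mean difference without Dox and a negative one with Dox. These were 2.67 and -2.33 at XBP1, 1.67 and -2.33 at AMIGO2, and 0.667 and -1.67 at AREG. The difference between Dox states was not tested at AGR2 or AGR3, and these 2 genes share sites.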

How the results depend on the processing

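The WT loss count of 8 came to 2 at a −log10 q of at least 10 and to 5 in the 20 kb window, and the WT gain count of 0 to 2 at a −log10 q of at least 10 and to 1 in the 100 kb window. The Y537S loss count of 8 came to 4 in the 20 kb window. The Y537S gain count of 2 came to 1 at a −log10 q of at least 5 and also of at least 10, to 0 at equal list length and to 4 in the 100 kb window. The K303R gain count of 6 came to 2 and 0 at a −log10 q of at least 5 and 10, to 0 at equal list length, to 3 and 11 in the 20 and 100 kb windows and to 11 with summits within 200 bp joined. The number of sites itself was 64, 38, 35, 43, 96 and 117 in that order of settings, which is part of how these counts are built; other causes were not tested. Leaving out 1 library gave 8 to 13 losses and 0 to 3 gains in WT, 8 to 18 and 2 to 7 in Y537S, and 0 to 1 and 6 to 15 in K303R. With a library left out the rule has fewer conditions, so these counts could not fall.

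For the sites open in all libraries, these alternatives were chosen after seeing the data. The 2-fold rule gave 1, 2 and 1 below and 0, 1 and 0 above in WT, Y537S and K303R; without scaling it gave 0, 7 and 0 below and 0, 0 and 0 above. The 1.5-fold rule gave 5, 7 and 1 below and 1, 1 and 0 above. Column 7 without scaling gave 2 above in Y537S, and 1 below and 8 above in K303R, and ranks gave 3 above in Y537S. Leaving out 1 library, which loosens the rule, gave 7 to 9 below and 5 to 6 above in WT, 9 to 10 and 5 to 6 in Y537S, and 3 to 6 and 7 to 8 in K303R.

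The E2 difference in open sites turned sign at XBP1 to -0.833 at equal list length, -0.333 in the 100 kb window and -1.0 without Y537S, at AREG to 0.5 without Y537S, at AGR2 to -0.167 at a −log10 q of at least 5 and at AGR3 to -0.167 at equal list length. No alternative gave an exact permutation p below 0.375. E2 was tested within 6 pairs of the same line and Dox state. A further fit with a replicate block was not possible, because each group holds 1 library. With pileups as low as 3, a missing peak is not a closed site.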

Other observations

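Of the 72 sites, 20 (27.8%) were listed in 1 library only, beside 32% of all merged regions, and 16 (22.2%) in all 12, beside 9.99%. XBP1 held 11 of the single-library sites, and 6 of those were listed only in Y537S E2, which held 7306 of the 53210 single-library regions of the genome and where XBP1 had 21 open sites against 14 in Y537S untreated. K303R Dox held 7 of the single-library sites, beside 7088 over the genome, and K303R Dox+E2 held 0, beside 5149.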
